A study of Mus musculus with 4 samples.

Results

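The genes described here encode the machinery that licenses replication origins and copies DNA, measured by RNA sequencing in Py8119 cells, a mesenchymal-like mouse mammary tumour line of C57BL/6 origin, grown in IMDM with 10% serum. Cells overexpressing Mtss1 (labelled Mtss1 1 and 2) were compared with control cells (labelled hygro 1 and 2), with 2 libraries in each group and no other treatment. Mtss1 encodes a membrane-binding and actin-binding scaffold protein. The labels do not say what hygro stands for, how Mtss1 was introduced, whether either population is a single clone, or whether each library had a culture of its own. All p-values therefore speak only of library-to-library spread, and that spread may be technical. The 50 genes were chosen by symbol, 1 row each among the 50600 rows of the table, and are described by role: origin recognition, loading of the helicase, the MCM helicase, its activation, polymerases, clamp and lagging strand, single-strand binding, nucleotide supply, chromatin assembly and E2F factors.

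In late mitosis and G1 the origin recognition complex, with Cdc6 and Cdt1, loads the MCM helicase onto DNA as an inactive double ring, a step called licensing. In S phase the ring is activated by Cdc45, the GINS complex and Mcm10. DNA polymerase alpha with primase then starts each strand, and polymerase epsilon and polymerase delta extend the leading and the lagging strand on a sliding clamp, PCNA. Many of these genes are transcribed around the G1/S boundary under E2F factors, and their RNA is often read as a sign of proliferation in mammary tumours.

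Expression is given in CPM, the authors' read counts scaled between libraries in a way that no source used here states. Fold changes are log2 of (CPM + 1), Mtss1 overexpression over control. Recovered depth was 15594209 and 16656638 reads in overexpression 1 and 2, against 20617788 and 22081639 reads in control 1 and 2. All 50 genes exceeded 1 CPM in all 4 libraries, and the least abundant value rested on 131 reads. Mtss1 itself read 118 and 119 CPM in the overexpression libraries, against 54.5 and 50.5 CPM in the control libraries. Immune markers summed to at most 0.126 CPM in any library, and endothelial markers to 1.07 and 1.19 CPM with overexpression, against 0.294 and 0.368 CPM in control. Of the epithelial markers Epcam was listed at 0 throughout and Cdh1 reached at most 0.092 CPM, while the keratins Krt8 and Krt18 brought the epithelial sum to 601 and 602 CPM with overexpression, against 849 and 893 CPM in control. The 4 stromal markers summed to 132 and 135 CPM with overexpression, against 194 and 197 CPM in control, nearly all of it Pdgfra. Col1a1 went the other way, at 2.9 and 2.74 CPM with overexpression, against 1.47 and 1.06 CPM in control, while Dcn reached at most 1.01 CPM and Lum at most 0.0595 CPM. Of the mesenchymal markers, Vim overlapped between groups and Fn1 read 7960 and 8244 CPM with overexpression, against 10026 and 9858 CPM in control. The part of these differences in the results below was not tested.

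Most replication genes were lower in Mtss1-overexpressing cells, but not all parts of the machinery moved together. Of the 50, 30 were lower, 8 were higher and 12 fell short of the threshold (limma, Benjamini-Hochberg adjusted p under 0.05 over 12510 tested genes). In the same fit 34.2% of all tested genes were lower and 31.9% were higher, and 66.1% passed in either direction, against 60.0%, 16.0% and 76.0% of the replication genes. The median log2 fold change was -0.28 for the replication genes and -0.01 for all tested genes. The changes were moderate: log2 fold changes lay between -0.83 and 0.33, 11 genes were lower by at least 1.5-fold in mean CPM, and 0 were higher by that much. The libraries of the 2 groups did not overlap for 42 of the 50 genes (84.0%), against 81.6% of all tested genes. With overexpression, 32 of them were lower and 10 higher, against a background of 41.9% lower and 39.7% higher. The genes that fell included every subunit of the MCM helicase, polymerase alpha with primase, polymerase epsilon, the clamp Pcna and Tyms, Tk1 and Dut of thymidine nucleotide supply. The genes that rose included Pold1 and Pold2 of polymerase delta, Rpa1, Orc3 and Orc4. In bulk RNA, a smaller share of cells in S phase and less of each RNA per cell cannot be told apart. Leaving out control 1 lowered the number of genes that rose to 5.

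**Figure D1:**
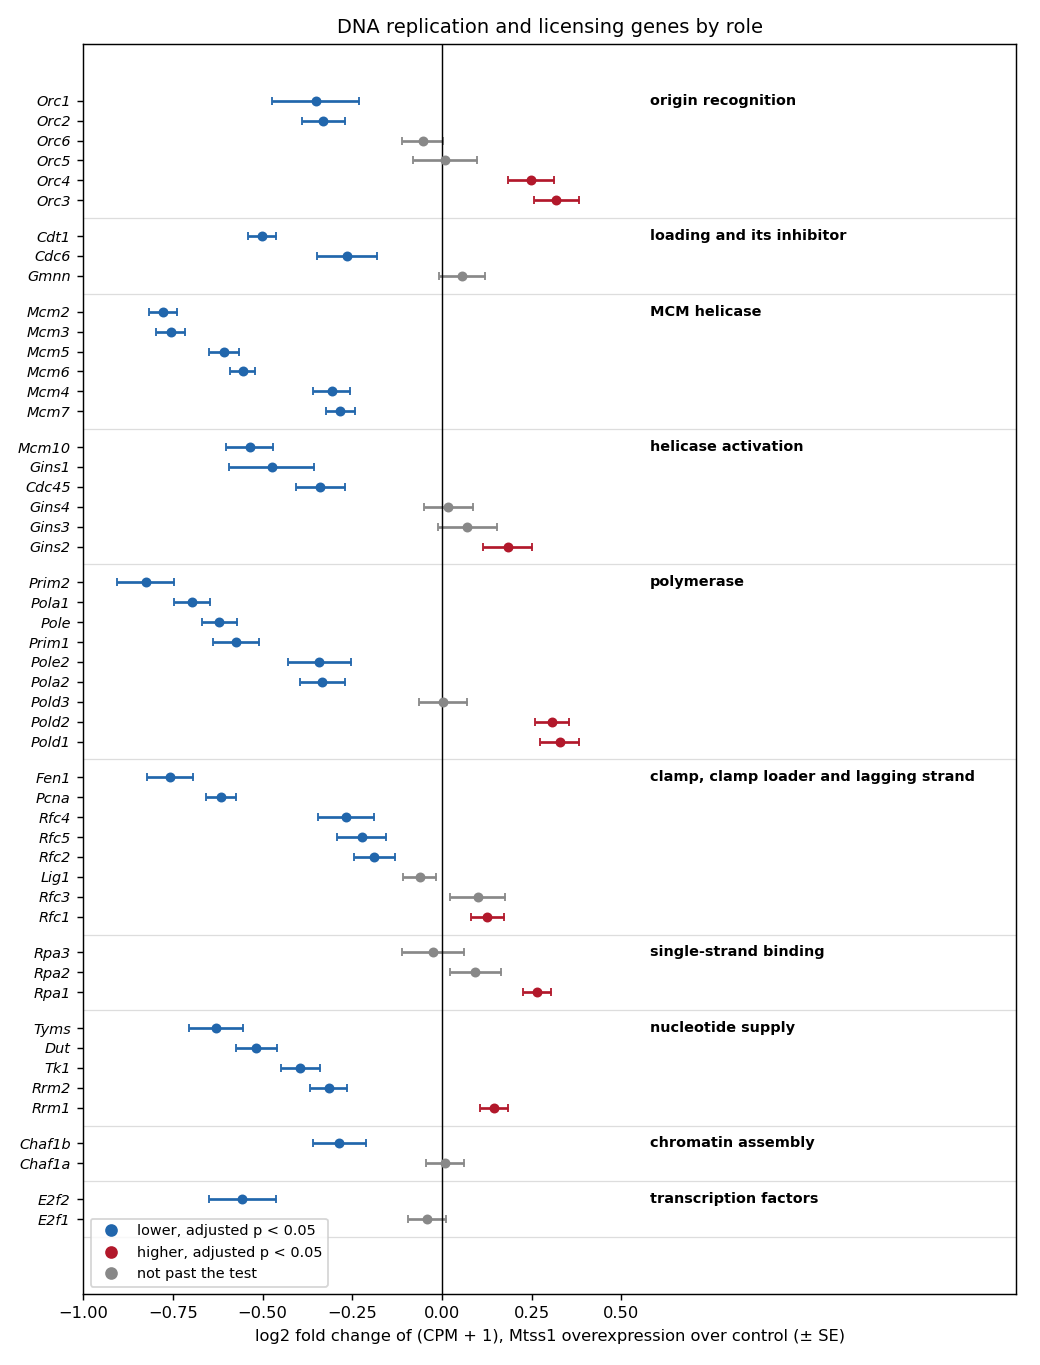
Log2 fold change of (CPM + 1), Mtss1 overexpression over control, with its limma standard error (bars) for 50 replication and licensing genes (points), grouped by role and coloured by the test. All 6 MCM helicase genes lie left of 0, while the origin recognition and polymerase genes spread to both sides.

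The start regions of these genes were searched for letters that match sites of E2F factors, which drive G1/S transcription (TTTCCCGC, TTTGGCGC, TTTCGCGC or TTTGCCGC, either strand, overlaps allowed). RefSeq windows from 250 bases before to 50 bases after a transcription start (GRCm38.p6) were available for 42 of the 50 genes, 51 windows in all. At least 1 of these 8-letter words stood in 31.4% of the windows, against 2.3% of all 32851 RefSeq windows and 4.0% of the windows of genes tested here. By gene, it was found in 10 of 25 genes that fell, 2 of 7 that rose and 4 of 10 that did not pass the test. Genes with these letters therefore occur in each of the 3 classes. A match of letters is a description and not a site of binding. Of the other words searched on both strands, CCAAT stood in 54.9% of the replication windows, against 37.4% of all windows and 38.7% of windows of tested genes. TTTGAA, the core of a cell-cycle element of late-cycle genes, stood in 11.8%, close to the 12.1% of windows of tested genes (17.9% of all windows). The 170 bases before the start are printed for 3 genes that fell and 1 that rose, read in the direction of the gene, to show where E2F words stand. Only E2F words are in capitals, and CCAAT, present in the stretches of Mcm5, Mcm6 and Pola1, is in lower case. The 3 printed genes that fell hold TTTGGCGC, in Mcm5 and Mcm6 also TTTCGCGC, on either strand, and Orc3, which rose, holds TTTCCCGC. In the full windows TTTCCCGC also stood in Pold1, which rose, and in Cdc6, Mcm3 and Mcm7, which fell. Gins3, Pold3 and Rfc3, which did not pass the test, held it too.
Mcm5, chr8:75109339-75109508, plus strand: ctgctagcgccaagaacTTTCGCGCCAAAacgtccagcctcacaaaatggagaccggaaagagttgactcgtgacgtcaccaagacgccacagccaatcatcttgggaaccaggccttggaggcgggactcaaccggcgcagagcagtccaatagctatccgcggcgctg
Mcm6, chr1:128359706-128359875, minus strand: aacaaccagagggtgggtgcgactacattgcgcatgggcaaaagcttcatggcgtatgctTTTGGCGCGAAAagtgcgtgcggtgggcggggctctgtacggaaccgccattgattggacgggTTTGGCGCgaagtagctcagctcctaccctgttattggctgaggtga
Pola1, chrX:93632156-93632325, minus strand: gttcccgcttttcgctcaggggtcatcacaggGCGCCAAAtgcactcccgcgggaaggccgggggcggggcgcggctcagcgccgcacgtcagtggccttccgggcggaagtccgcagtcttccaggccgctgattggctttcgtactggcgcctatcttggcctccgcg
Orc3, chr4:34614943-34615112, minus strand: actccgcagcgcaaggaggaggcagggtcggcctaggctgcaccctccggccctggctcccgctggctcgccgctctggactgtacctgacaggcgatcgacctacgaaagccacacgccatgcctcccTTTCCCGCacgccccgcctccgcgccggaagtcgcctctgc

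The origin recognition complex, which marks origins, showed no common direction. Orc1, the ATPase subunit whose level varies over the cell cycle in mammalian cells, read 8.26 and 8.39 CPM with overexpression, against 10.2 and 11.6 CPM in control (log2 fold change -0.35 ± 0.12 SE, limma adjusted p = 0.014). Orc2, a core subunit, read 43.4 and 45.4 CPM with overexpression, against 58.4 and 53.9 CPM in control (-0.33 ± 0.06, limma adjusted p = 5.1e-05). Both were lower in each overexpression library than in either control library. Orc3, another core subunit, read 53.4 and 48.7 CPM with overexpression, against 41.3 and 40.1 CPM in control (0.32 ± 0.06, limma adjusted p = 0.00013). Orc4, an ATPase-fold subunit, read 49.9 and 48.9 CPM with overexpression, against 43.9 and 39.1 CPM in control (0.25 ± 0.06, limma adjusted p = 0.0019). These 2 genes were higher without overlap. Orc2 and Orc3 therefore changed in opposite directions, at 44.4 and 51.1 mean CPM with overexpression, against 56.2 and 40.7 mean CPM in control. Within a library the Orc3 to Orc2 ratio of CPM was 1.23 and 1.07 with overexpression, against 0.708 and 0.744 in control. Orc5 (0.01 ± 0.09, 23.6 and 21.4 CPM with overexpression, 23.8 and 20.9 CPM in control) and Orc6 (-0.05 ± 0.06, 56.8 and 62.1 CPM with overexpression, 62.3 and 61.1 CPM in control) did not pass the test, and their groups overlapped. Without control 2 the calls of Orc1 (limma adjusted p = 0.14) and Orc4 (limma adjusted p = 0.063) were lost, and that of Orc1 also with no expression filter (0.069). Annotated exons of Orc1, Orc2, Orc4 and Orc6 overlap those of genes on the other strand. Nif3l1, sharing 1150 of the 3857 exonic bases of Orc2, read 26.2 and 29.6 CPM with overexpression, against 34.7 and 36.6 CPM in control. Acvr2a, which overlaps Orc4, read 23.0 and 22.2 CPM with overexpression, against 15.1 and 14.3 CPM in control. Mbd5, which also overlaps Orc4, read 24.2 and 25.5 CPM with overexpression, against 28.6 and 26.5 CPM in control. The part of shared reads was not tested. No source used here says whether counting was stranded, so reads of such pairs cannot be told apart. The same holds for Cdc45, Pole, Lig1, Tk1, Fen1, Rfc2 and Rfc5, and for the pairs named below.

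Loading of the helicase needs Cdc6 and Cdt1, and geminin (Gmnn) blocks Cdt1 after S phase has begun. Cdt1 read 154 and 150 CPM with overexpression, against 218 and 212 CPM in control (log2 fold change -0.50 ± 0.04, limma adjusted p = 1.4e-10). Cdc6 read 26.8 and 24.0 CPM with overexpression, against 28.6 and 32.9 CPM in control (-0.26 ± 0.08, limma adjusted p = 0.0084). Neither gene overlapped between groups, but Cdc6 missed the threshold without control 2 (limma adjusted p = 0.16), without overexpression 2 (0.092) and with no expression filter (0.068). Gmnn read 47.0 and 42.8 CPM with overexpression, against 43.0 and 43.3 CPM in control (0.06 ± 0.06), and did not pass the test. The ratio of Cdt1 to Gmnn within a library was 3.27 and 3.49 with overexpression, against 5.08 and 4.89 in control.

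All 6 genes of the MCM helicase fell, with a median log2 fold change of -0.58. Mcm2 read 164 and 171 CPM with overexpression, against 282 and 294 CPM in control (log2 fold change -0.78 ± 0.04, limma adjusted p = 6.2e-14). Mcm3 read 116 and 120 CPM with overexpression, against 196 and 204 CPM in control (-0.76 ± 0.04, limma adjusted p = 2.6e-13). Mcm5 read 124 and 129 CPM with overexpression, against 188 and 198 CPM in control (-0.61 ± 0.04, limma adjusted p = 1.5e-11). The gap between groups was several times the gap within a group for each of these. Mcm6 read 218 CPM in both overexpression libraries, against 317 and 324 CPM in control (-0.56 ± 0.04). The smallest changes were those of Mcm4, at 83.3 and 91.0 CPM with overexpression, against 103 and 113 CPM in control (-0.31 ± 0.05), and of Mcm7, at 135 and 141 CPM with overexpression, against 168 CPM in both control libraries (-0.28 ± 0.04). Their limma adjusted p was 1.9e-05 or lower. No MCM gene overlapped between groups, and 81.6% of all tested genes did not overlap either. The 6 proteins form a ring with 1 copy of each, yet their RNAs fell by unequal amounts: the ratio of Mcm7 to Mcm2 CPM within a library was 0.824 and 0.826 with overexpression, against 0.597 and 0.572 in control. Summed over the ring, MCM RNA amounted to 839.5 and 870.6 CPM with overexpression, against 1254 and 1302 CPM in control, a ratio of means of 0.669.

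Levels of different genes were compared only per kilobase of the principal annotated transcript. By mean CPM per kb the order with overexpression was Mcm6 (74.9), Mcm2 (49.7), Mcm7 (46.6), Mcm3 (38.9), Mcm5 (37.4) and Mcm4 (24.3). In control the order was Mcm6 (110), Mcm2 (85.4), Mcm3 (66.0), Mcm5 (57.2), Mcm7 (56.8) and Mcm4 (30.1). Mcm5 and Mcm7 overlapped between control libraries and could not be ordered there, whereas the 2 overexpression libraries of Mcm7, at 45.5 and 47.8 CPM per kb, both lay above those of Mcm3 and Mcm5. By this length Mcm6 was highest and Mcm4 lowest in every library. The order depends on the length used. The principal transcript of Mcm2 has 3371 bases and all its annotated exons together 6956, while Mcm4 has 3589 by either measure. Annotated exons of Mcm7 overlap 2 genes on the opposite strand, Ap4m1 and Cops6, which read higher in both overexpression libraries. Cops6 read 117 and 125 CPM with overexpression, against 87.7 and 90.9 CPM in control, and the part of shared reads in Mcm7's value was not tested.

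**Figure D2:**
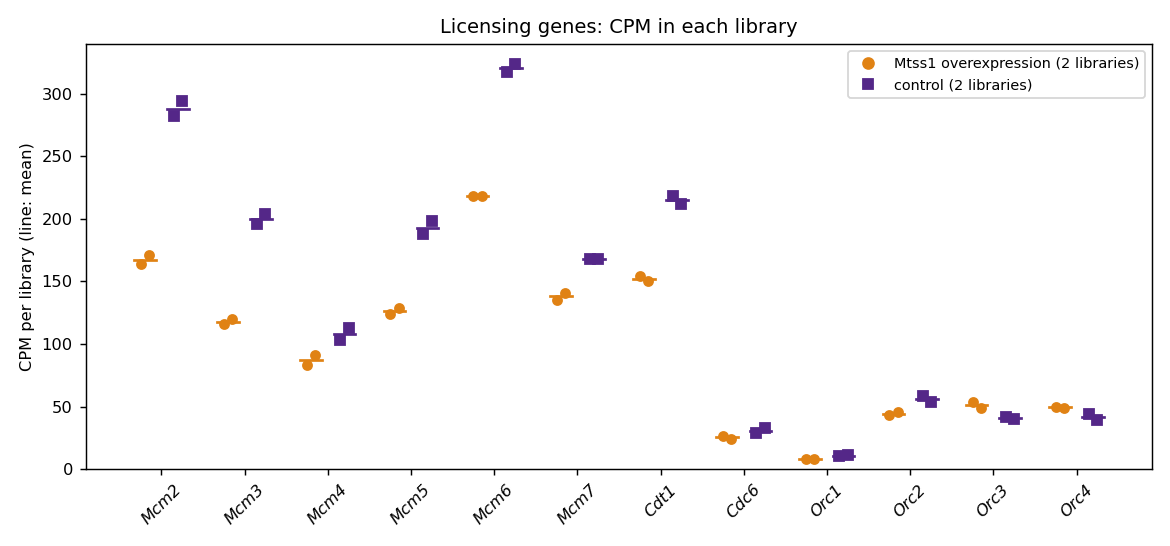
CPM of 12 licensing genes in each library, Mtss1 overexpression (circles) left of control (squares), with short lines at the group means (n = 2 each). The circles lie below the squares for the MCM genes, Cdt1, Cdc6, Orc1 and Orc2 and above them for Orc3 and Orc4.

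Among the factors that activate the loaded helicase, Mcm10, Cdc45 and Gins1 fell, Gins2 rose, and Gins3 and Gins4 did not pass. Mcm10, a factor needed for the activated helicase to unwind, read 34.8 and 36.0 CPM with overexpression, against 49.1 and 54.6 CPM in control (log2 fold change -0.54 ± 0.07, limma adjusted p = 2.4e-07). Cdc45, part of the active helicase with MCM and GINS, read 37.9 and 42.3 CPM with overexpression, against 48.4 and 53.5 CPM in control (-0.34 ± 0.07, limma adjusted p = 0.00014). Gins1 read 9.33 and 7.97 CPM with overexpression, against 12.3 and 12.5 CPM in control (-0.48 ± 0.12, limma adjusted p = 0.0013). These 3 genes were lower in both overexpression libraries than in either control library. Gins2, a subunit of the same 4-protein complex, read 40.3 and 39.9 CPM with overexpression, against 33.4 and 37.0 CPM in control (0.18 ± 0.07, limma adjusted p = 0.023). That call was lost without control 1 (limma adjusted p = 0.27), without overexpression 1 (0.072), without overexpression 2 (0.054) and with no expression filter (0.069), and 2758 of the 4097 exonic bases of Gins2 overlap the opposite-strand gene Gse1. Gins3 (27.4 and 24.6 CPM with overexpression, 24.4 and 24.9 CPM in control) and Gins4 (38.3 and 41.3 CPM with overexpression, 37.6 and 41.0 CPM in control) overlapped between groups. The GINS complex therefore held members in each of the 3 classes of the test.

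The 3 replicative polymerases differed in direction. All 4 genes of polymerase alpha and primase, the complex that lays down the RNA-DNA primer, fell. Prim2, the large primase subunit, read 19.5 and 18.9 CPM with overexpression, against 33.5 and 36.3 CPM in control (log2 fold change -0.83 ± 0.08, limma adjusted p = 5.7e-09), the lowest fold change of the 50 genes. Pola1, the catalytic subunit, read 52.2 and 53.8 CPM with overexpression, against 85.4 and 87.7 CPM in control (-0.70 ± 0.05, limma adjusted p = 5.8e-11). Prim1, the catalytic primase subunit, read 32.1 and 33.9 CPM with overexpression, against 49.1 and 50.1 CPM in control (-0.57 ± 0.06), and the accessory subunit Pola2 read 47.1 and 42.4 CPM with overexpression, against 54.7 and 58.5 CPM in control (-0.33 ± 0.06). Their libraries did not overlap between groups. Polymerase epsilon also fell: the catalytic gene Pole read 66.4 and 67.0 CPM with overexpression, against 100 and 106 CPM in control (-0.62 ± 0.05, limma adjusted p = 1.7e-10), and Pole2 read 19.0 and 18.3 CPM with overexpression, against 23.1 and 24.7 CPM in control (-0.34 ± 0.09, limma adjusted p = 0.0015).

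Polymerase delta did not follow. Its catalytic gene Pold1 read 87.3 and 95.3 CPM with overexpression, against 69.2 and 76.0 CPM in control (log2 fold change 0.33 ± 0.05, limma adjusted p = 1.7e-05). Pold2, the subunit that bridges the complex, read 127 and 123 CPM with overexpression, against 96.5 and 106 CPM in control (0.31 ± 0.05, limma adjusted p = 5.9e-06). Both genes were higher in each overexpression library than in either control library. Pold3, which carries a clamp-binding tail, read 39.1 and 36.1 CPM with overexpression, against 38.2 and 36.9 CPM in control, and did not pass the test (0.00 ± 0.07). A further subunit outside the 50 genes, Pold4, read 105 and 103 CPM with overexpression, against 60.6 and 68.6 CPM in control (0.68 ± 0.05, limma adjusted p = 2.4e-10). The ratio of Pold1 to Pole CPM within a library, which no scaling of libraries can alter, was 1.32 and 1.42 with overexpression, against 0.691 and 0.716 in control. The ratio of Pold1 to Pola1 was 1.67 and 1.77 with overexpression, against 0.810 and 0.866 in control. Per kilobase of transcript, the means for Pold1, Pola1 and Pole were 26.4, 9.91 and 9.31 CPM per kb with overexpression, against 21.01, 16.2 and 14.4 CPM per kb in control.

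**Figure D3:**
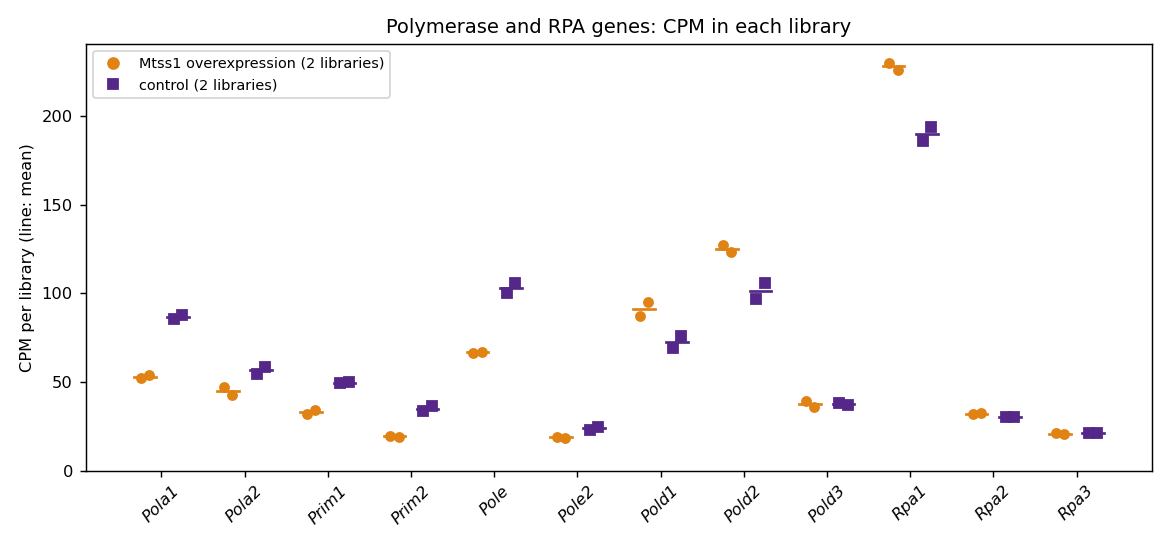
CPM of polymerase alpha and primase (Pola1, Pola2, Prim1, Prim2), epsilon (Pole, Pole2), delta (Pold1 to Pold3) and RPA genes in each library, Mtss1 overexpression (circles) left of control (squares), with lines at the group means (n = 2 each). The circles lie below the squares for the alpha, primase and epsilon genes and above them for Pold1, Pold2, Rpa1 and, by less, Rpa2.

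The sliding clamp gene Pcna read 150 and 142 CPM with overexpression, against 217 and 231 CPM in control (log2 fold change -0.62 ± 0.04, limma adjusted p = 1.3e-11). An annotated pseudogene, Pcna-ps2, read 1.05 and 1.12 CPM with overexpression, against 2.21 and 1.87 CPM in control. Fen1, the nuclease that removes the flaps of Okazaki fragments, read 31.0 and 33.3 CPM with overexpression, against 54.5 and 55.6 CPM in control (-0.76 ± 0.06, limma adjusted p = 5.8e-10). Both genes were lower without overlap. Lig1, the ligase that seals these fragments, read 114 and 113 CPM with overexpression, against 114 and 123 CPM in control (-0.06 ± 0.05), and did not pass. The clamp loader was divided: Rfc4 (-0.27 ± 0.08, limma adjusted p = 0.0049), Rfc5 (-0.22 ± 0.07, limma adjusted p = 0.007) and Rfc2 (-0.19 ± 0.06, limma adjusted p = 0.0062) fell and Rfc1, the large subunit, rose (0.13 ± 0.05, limma adjusted p = 0.02). Rfc4 read 23.0 CPM in both overexpression libraries, against 28.2 and 27.6 CPM in control, and Rfc1 read 106 and 110 CPM with overexpression, against 96.4 and 101 CPM in control. Rfc3, at 30.8 and 31.4 CPM with overexpression, against 27.6 and 30.4 CPM in control, did not pass. Leaving out a library ended several calls in the loader: without control 2 Rfc2 (limma adjusted p = 0.063) and Rfc5 (0.18) were lost, and Rfc1 was lost without control 1 (0.19), without overexpression 2 (0.14) and with no expression filter (0.065). The exons of Rfc4 overlap the opposite-strand gene Eif4a2, which read 389 and 406 CPM with overexpression, against 204 and 201 CPM in control.

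RPA, the trimer that coats single-stranded DNA, had no member that fell. Rpa1, the large DNA-binding subunit, read 230 and 226 CPM with overexpression, against 186 and 194 CPM in control (log2 fold change 0.26 ± 0.04, limma adjusted p = 2.2e-06), without overlap. Rpa2 read 31.8 and 32.4 CPM with overexpression, against 30.1 and 30.0 CPM in control (0.09 ± 0.07), and Rpa3 read 21.2 and 20.4 CPM with overexpression, against 21.2 CPM in both control libraries (-0.03 ± 0.09). Neither passed the test, though the groups of Rpa2 did not overlap.

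Of the 5 genes of nucleotide supply, 4 fell and 1 rose. Tyms, thymidylate synthase, read 26.2 and 28.1 CPM with overexpression, against 39.8 and 45.4 CPM in control (log2 fold change -0.63 ± 0.08, limma adjusted p = 1.6e-07). Dut, the dUTPase that keeps uracil out of DNA, read 56.1 and 51.2 CPM with overexpression, against 79.7 and 74.7 CPM in control (-0.52 ± 0.06, limma adjusted p = 4.3e-08). Tk1, the cytosolic thymidine kinase, read 54.5 and 56.4 CPM with overexpression, against 70.8 and 75.6 CPM in control (-0.39 ± 0.05, limma adjusted p = 1.2e-06). These 3 genes on the route to thymidine nucleotides were lower without overlap. The subunits of ribonucleotide reductase, which makes deoxynucleotides, moved apart. Rrm2, the small subunit whose level follows S phase, read 61.0 and 64.0 CPM with overexpression, against 76.9 and 79.2 CPM in control (-0.32 ± 0.05, limma adjusted p = 1.2e-05). Rrm1, the large catalytic subunit, read 189 and 192 CPM with overexpression, against 168 and 177 CPM in control (0.14 ± 0.04, limma adjusted p = 0.0026), a call that missed the threshold without control 1 (limma adjusted p = 0.051). The ratio of Rrm1 to Rrm2 was 3.1 and 3.0 with overexpression, against 2.19 and 2.23 in control.

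Chromatin assembly factor 1 places new histones behind the fork. Its middle subunit gene Chaf1b read 28.7 and 32.3 CPM with overexpression, against 38.3 and 36.4 CPM in control (log2 fold change -0.29 ± 0.07, limma adjusted p = 0.0017). The large subunit gene Chaf1a read 76.9 and 74.7 CPM with overexpression, against 71.7 and 79.1 CPM in control (0.01 ± 0.05), with overlapping groups, and 4648 of its 8854 exonic bases overlap Ubxn6 on the other strand. Of the E2F activators, E2f2 read 15.7 and 15.4 CPM with overexpression, against 21.8 and 24.9 CPM in control (-0.56 ± 0.09, limma adjusted p = 1.9e-05). E2f1 read 58.8 and 57.8 CPM with overexpression, against 60.1 and 60.0 CPM in control (-0.04 ± 0.05), and did not pass.

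Another 69 genes of replication, all of them tested, were read from the same fit. Of these, 32 fell, 13 rose and 24 did not pass, with a median log2 fold change of -0.11. That is 46.4% lower and 18.8% higher, against 34.2% and 31.9% of all tested genes. With scaling by library size 26 fell and 13 rose, and with no expression filter 27 fell and 10 rose. In the group for origin firing and the fork, 7 of 14 fell and 3 rose. Recql4, a helicase-family protein involved in initiation, read 17.9 and 18.4 CPM with overexpression, against 47.5 and 48.1 CPM in control (-1.35 ± 0.07, limma adjusted p = 2.8e-13), a larger fall than any of the 50 genes. Mtbp, a partner of the firing factor Ticrr, fell by 0.80 ± 0.06 and Wdhd1, which links polymerase alpha to the helicase, by 0.50 ± 0.07. Cdc7 and Dbf4, the kinase and its activator that fire licensed origins, went the other way. Cdc7 read 27.4 and 25.3 CPM with overexpression, against 18.2 and 21.5 CPM in control (0.39 ± 0.09, limma adjusted p = 0.00064), and Dbf4 read 81.2 and 80.9 CPM with overexpression, against 61.8 and 70.0 CPM in control (0.30 ± 0.06, limma adjusted p = 7.3e-05). Mcm9 rose by 0.25 ± 0.11, a call that was lost without any 1 library.

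Among 12 further polymerase, clamp and lagging-strand genes 7 fell and 2 rose (58.3% and 16.7%, against 34.2% and 31.9% of all tested genes). Dscc1, a subunit of the alternative clamp loader, read 6.11 and 5.89 CPM with overexpression, against 13.2 and 15.4 CPM in control (-1.12 ± 0.12, limma adjusted p = 4.1e-08). The nuclease-helicase gene Dna2 fell by 0.82 ± 0.14 and the polymerase epsilon subunit gene Pole4 by 0.57 ± 0.06. Besides Pold4, Rnaseh2c rose (0.23 ± 0.09), though not without control 1 or without overexpression 1. Of 12 further nucleotide genes 8 fell and 2 rose (66.7% and 16.7%). Shmt1, which supplies one-carbon units for thymidylate, fell by 0.90 ± 0.06, with 36.6 and 33.6 CPM with overexpression, against 63.3 and 69.3 CPM in control. Nme1, a nucleoside diphosphate kinase, fell by 0.57 ± 0.05 and Rrm2b, the p53-inducible reductase subunit, by 0.48 ± 0.06. Samhd1, which degrades deoxynucleotides, rose by 0.13 ± 0.04, but not without control 1, and Tk2, the mitochondrial thymidine kinase, by 0.19 ± 0.08, but not without control 2, overexpression 1 or overexpression 2.

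Of 10 chromatin genes 4 fell and 6 did not pass, a share of lower genes near the 34.2% of all tested genes. Those that fell included Nasp, a histone chaperone (-0.30 ± 0.05), and Ssrp1 (-0.17 ± 0.03) and Supt16 (-0.12 ± 0.04), the subunits of the FACT complex. Supt16 was lost without control 2, without overexpression 1 and with scaling by library size. Of 21 genes of E2F, RB and S-phase control 6 fell and 6 rose, 28.6% each way, which is below the 34.2% lower and 31.9% higher among all tested genes. Rbl1, a pocket protein and itself transcribed at G1/S, fell by 0.62 ± 0.07 and the repressor E2f6 by 0.32 ± 0.08. The E2F family split: E2f5 (0.57 ± 0.08), E2f7 (0.43 ± 0.08) and E2f8 (0.35 ± 0.09), the last 2 named after their values were seen, rose. E2f3 (-0.06 ± 0.07) and E2f4 (0.03 ± 0.05) did not pass the test. E2f7 and E2f8 encode atypical repressors, and E2f7 read 32.0 and 33.0 CPM with overexpression, against 24.7 and 22.9 CPM in control. The cyclin genes did not share a direction. Ccne1, cyclin E1 of the G1/S transition, read 21.2 and 20.5 CPM with overexpression, against 16.2 and 13.6 CPM in control (0.46 ± 0.10, limma adjusted p = 0.00032), and Ccna2, cyclin A2, read 220 CPM in both overexpression libraries, against 155 and 160 CPM in control (0.48 ± 0.04, limma adjusted p = 2.2e-10). Ccne2 fell by 0.29 ± 0.11, a call that was lost without control 1, control 2 or overexpression 1.

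Genes of mitosis gave a contrast within the same libraries. Of 20 mitotic genes read for comparison 15 rose, 1 fell and 4 did not pass, with a median log2 fold change of 0.27. That is 75.0% higher and 5.0% lower, against 31.9% and 34.2% of all tested genes. The gene that fell was Cenpf (-0.11 ± 0.04), a kinetochore protein gene. Its call was lost without control 2, without overexpression 1, with scaling by library size and with no expression filter. Birc5, which rose (0.11 ± 0.05), also lost its call without any 1 library and with no expression filter. Ccnb2, Cdk1 and Tpx2, which rose, lost theirs without control 1. Summed CPM of the 20 genes was 3382 and 3440 with overexpression, against 2715 and 2874 in control, a ratio of means of 1.22, whereas summed CPM of the 50 replication genes was 3367 and 3393 with overexpression, against 4035 and 4189 in control, a ratio of 0.822. Without control 1 the number of mitotic genes that rose was 11. The difference between these lists was not tested as such. Mki67, a proliferation marker named after its values were seen, read 417 and 431 CPM with overexpression, against 295 and 332 CPM in control.

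**Figure D4:**
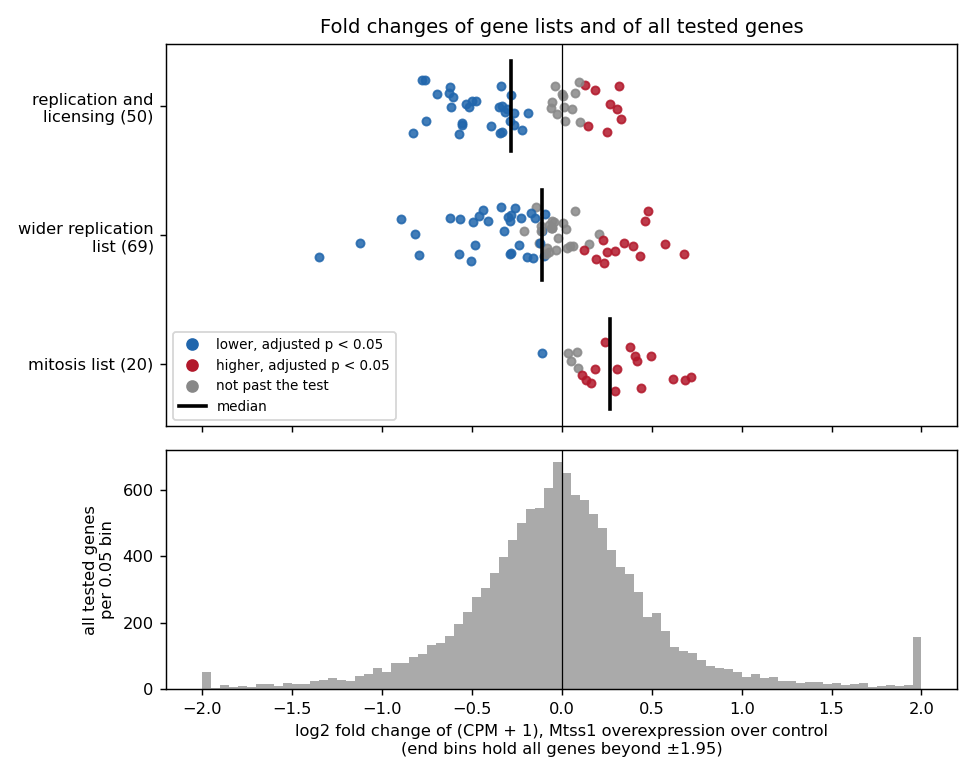
Log2 fold change of (CPM + 1), Mtss1 overexpression over control, for the genes of 3 lists (upper panel, points coloured by the test, black line at the median) and the number of all 12510 tested genes per bin (lower panel). The replication genes centre on -0.28, the wider list on -0.11 and the mitosis list on 0.27.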

How the data were processed

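Per the labels' protocols, Trizol RNA of 2 Mtss1-overexpressing and 2 control samples was read from both ends, 150 bases each. FastQC 0.11.2, STAR, RSEM and build mm10 are named in the submitters' processing notes, with no role or setting. The deposited values were read as CPM from the values: columns summed to between 982877 and 1016225, and no source used here says what scaled them. The CPM of 1 read in each library gave the recovered reads. Of nonzero values, 79.6% to 80.5% were whole within 0.005 read and 100.0% were whole hundredths of a read. The values were treated as normalized. Replicates differed by 1.78 and 2.00 times Poisson noise (overexpression, control) and were kept as 2 samples each.

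The 12510 genes that reached 1 CPM in 2 or more libraries were tested with limma 3.58.1 in R 4.3.3 on log2(CPM + 1), with a mean-dependent prior (2 residual and 20.0 prior degrees of freedom) and Benjamini-Hochberg adjustment over all of them. The pseudocount of 1 slightly understates changes of low genes. The steps were tested on simulated data. GENCODE M21 (mm10) gave coordinates, exon overlaps and principal transcript lengths, and RefSeq gave promoter windows. The members, lists and alternatives were chosen with earlier results of these data known. All members could be named; from the wider list, up to 3 genes in each direction in each of its 5 groups with the largest change past the threshold were named. E2f3, E2f4, E2f7, E2f8, Cenpf, Birc5, Ccnb2, Cdk1, Tpx2 and Mki67 were added to these. Protein sequences were not analysed here.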

Additional observations from a re-analysis of the deposited data

How the results depend on the processing

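Across 12 alternative settings, 34 of the 50 genes kept both their direction and their side of the threshold, and 0 of the 38 genes that passed the test changed direction. The number of genes that fell lay between 26 and 30 and that of genes that rose between 6 and 8 over all settings except that without control 1, which gave 5; leaving out each library in turn gave 5 to 7 that rose. The median log2 fold change of the 50 genes ran from -0.30 to -0.25. With the replicate number as a block, 30 genes fell and 8 rose, as without it, and no call of a member changed. Deviations of same-numbered libraries correlated at -0.02 across genes, which cannot show whether such libraries shared a culture or a preparation. Limma-voom on the recovered reads also gave 30 and 8. Of genes that did not pass, 8 changed sign when a library was left out: Chaf1a (-0.0606 to 0.0793), Gins3 (-0.0038 to 0.14), Gins4 (-0.0437 to 0.0793), Gmnn (-0.0101 to 0.12), Orc5 (-0.0816 to 0.0986), Orc6 (-0.12 to 0.0097), Pold3 (-0.0527 to 0.0577) and Rpa3 (-0.0553 to 0.0034). Rpa3 also changed sign with scaling by library size (0.0098). Leaving out a library ended the call of 8 genes in at least 1 case, each given beside its gene.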
